A study of Drosophila melanogaster with 11 samples.

Results

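Glycolysis splits glucose into pyruvate in the cytosol and yields ATP and NADH, and lactate dehydrogenase can then turn pyruvate into lactate and restore NAD+. In *Drosophila* the enzymes of the pathway are known to be induced together in growing larval tissue and under low oxygen, and *Ldh* is known as a marker gene of such a shift towards lactate. The 10 genes described here encode enzymes between hexokinase and lactate dehydrogenase, without aldolase and phosphoglycerate mutase: *Hex-A*, *Pgi*, *Pfk*, *Tpi*, *Gapdh1*, *Gapdh2*, *Pgk*, *Eno*, *Pyk* and *Ldh*. They were chosen by name for their place in the pathway, though with earlier results of these data known. All 10 were found among the 17771 genes of the count table. All 10 also passed the filter on low counts in every comparison.

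Newly made RNA was measured in Kc167 cells, a female cell line derived from *Drosophila* embryos that the study treats as hemocyte cells. In every group 10000000 cells were electroporated and left for 5 days. They received no RNA (mock, 4 libraries), 20 µg of double-stranded RNA against *M1BP* (2 libraries, replicates 2 and 3), 5 µg against the 67.2 isoform of *mod(mdg4)* (2 libraries, replicates 1 and 2) or 12 µg against *Cp190* (1 library, replicate 1). M1BP is a zinc-finger protein that binds a core promoter motif, and Mod(mdg4)67.2 and CP190 are proteins of the *gypsy* insulator complex. Cells were pulsed with 0.2 mM 5-ethynyl uridine (EU) for 1 h, and the labelled RNA was captured and sequenced from 1 end over 50 bases. The labels do not say that replicates were separate cultures, while the paper's reporting summary calls its 2 to 3 RNA-seq replicates biological. If the replicates were not separate cultures, p-values measure only the spread between these libraries.

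The 9 libraries held between 7462623 and 29680851 counted reads, and the 4 mock libraries were deeper than all others. Levels are given as CPM, counts per 1000000 counted reads with each library scaled by its TMM factor. *M1BP* itself lay at 44.3 to 54.8 CPM in the mock libraries and at 21.4 and 31.4 CPM in the *M1BP* knockdown libraries. A level below the mock range was not confined to these. *M1BP* was at 34.9 CPM in the library labelled as *Cp190* knockdown, and at 65.2 and 40.2 CPM in *mod(mdg4)* knockdown replicates 1 and 2. The *Cp190* gene was at 4379 CPM in the library labelled as *Cp190* knockdown against 340.5 to 462 CPM in the mock libraries. Whether reads of the added double-stranded RNA, which has *Cp190* sequence, were counted there was not tested. The paper reports reduced CP190 protein after *Cp190* knockdown in a western blot. Loss of the target in this library is thus not shown by the counts. The library is therefore called by its label throughout, and its values have no replicate check. An isoform-specific knockdown of *mod(mdg4)* cannot be checked by counts over the whole gene. Of 8 fixed markers of plasmatocytes, the main hemocyte type, *srp* averaged 4363 CPM and *Hml* 270.0 CPM in the mock libraries, while *NimC1* and *He* never exceeded 25 counts in any library.

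The genes lie on 5 chromosome arms, with coordinates in the dm6 build. *Hex-A* (FBgn0001186) is at chrX:9585675-9589813 and *Gapdh2* (FBgn0001092) at chrX:15868145-15869661, both on the plus strand. *Pgi* (FBgn0003074, chr2R:8910900-8914069, minus), *Pfk* (FBgn0003071, chr2R:10109740-10117457, plus) and *Gapdh1* (FBgn0001091, chr2R:7791901-7793380, minus) share arm 2R. *Pgk* (FBgn0250906, chr2L:2746880-2753068) and *Eno* (FBgn0000579, chr2L:1724768-1729636) lie on the minus strand of 2L. *Tpi* (FBgn0086355, chr3R:30132981-30134599, minus) and *Pyk* (FBgn0267385, chr3R:22367536-22372746, plus) are on 3R, and *Ldh* (FBgn0001258) is at chr3L:6259105-6262694 on the minus strand. Reads were counted over the whole span of each gene, introns included. The share of the span that is exonic in no annotated transcript ran from 0% in *Hex-A* and *Gapdh1* to 43.3% in *Pfk*, 45.9% in *Ldh*, 57.0% in *Pyk* and 65.9% in *Pgk*. No gene on the same strand overlaps any of the 10. On the opposite strand, *Rrp40* covers 18.6% of *Eno*, and *Bacc* and *Cwc25* cover 10.1% and 1.05% of *Pgk*, and counting was strand-specific.

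In the mock libraries, levels differed widely along the pathway. Between genes they are compared as CPM per kb of gene span. *Hex-A*, which phosphorylates glucose at the entry to the pathway, was highest with 1047 ± 261 CPM per kb (SD, n = 4), and stood 10th by CPM among the 13556 genes with a count in the mock libraries. *Gapdh2* followed with 289 ± 6.5 and *Ldh* with 211 ± 13.7 CPM per kb. *Tpi*, which interconverts the triose phosphates, had 107 ± 13.0 CPM per kb. *Gapdh1* (71.2 ± 15.4) and *Eno* (70.3 ± 2.51) overlapped each other, as did *Pyk* (50.0 ± 7.29) and *Pgi* (44.5 ± 6.5). *Pfk*, the main control point of the pathway, had 24.5 ± 0.70 CPM per kb, and *Pgk*, the first ATP-yielding step, was lowest with 9.12 ± 1.00 CPM per kb. Apart from those overlaps, each gene lay above the next in the order in all 4 mock libraries. The distance from *Hex-A* to *Gapdh2* was 3.62-fold and that from *Pfk* to *Pgk* 2.69-fold. Intron content differs between the genes, so an order per kb of span is not an order of mRNA.

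**Figure D1:**
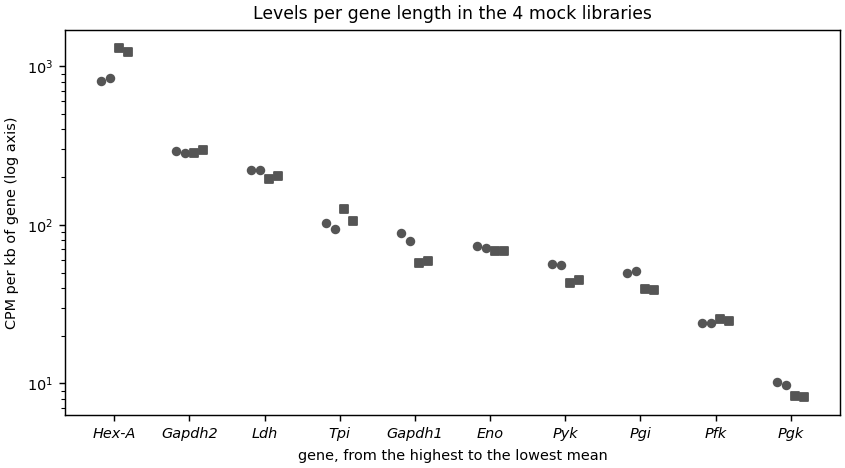
Levels of the 10 genes in the 4 mock libraries, as CPM per kb of gene span on a log axis, ordered by mean. Circles are mock replicates 1 and 2 and squares replicates 3 and 4; *Hex-A* averages 1047 and *Pgk* 9.12 CPM per kb, and the circles and squares of *Gapdh1* separate while those of *Gapdh2* lie together.

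The mock libraries fell into pairs, 1 with 2 and 3 with 4. The pairs did not overlap for 9 of the 10 genes, the exception being *Gapdh2*, and for 64% of 10180 genes. *Hex-A* was higher by 0.63 on the log2 scale in replicates 3 and 4, while *Gapdh1* was lower there by a log2 difference of -0.52, *Pgi* by -0.37 and *Pyk* by -0.36. Over 8404 genes the log2 CPM of replicates 1 and 2 correlated at 0.995 and those of 3 and 4 at 0.994, against 0.983 to 0.989 across the pairs. The labels give no batch for these libraries. Comparisons with mock were therefore repeated with only mock replicates 1 and 2 or only 3 and 4.

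After *M1BP* knockdown, the last step and a step of the lower pathway moved in opposite directions: *Ldh* rose and *Eno* fell, and the other 8 genes did not pass the test. By edgeR's quasi-likelihood test over 9511 genes with Benjamini-Hochberg adjustment, 1 of the 10 was higher and 1 lower at an adjusted p below 0.05, where 16.5% of all tested genes were higher and 11.5% lower. The median log2 fold change of the 10 was -0.14, beside -0.030 over all genes tested. In 1 gene (*Ldh*) every knockdown library lay above every mock library, and in 3 (*Pfk*, *Gapdh2* and *Eno*) below, where 22.8% and 27.1% of all genes did so. Both counts among the 10, 1 and 1 called and 1 and 3 without overlap, are near their background.

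*Ldh*, lactate dehydrogenase, measured 796, 800.3, 704 and 725 CPM in mock replicates 1 to 4 and 1307 and 989 CPM in *M1BP* knockdown replicates 2 and 3. Both knockdown libraries were above all mock libraries, and replicate 2 was the higher of them. The means were 756 ± 49.1 CPM (SD, n = 4) and 1148 ± 224 CPM (SD, n = 2), a log2 fold change of 0.65 ± 0.15 (SE; 95% interval 0.31 to 0.98), with adjusted p = 0.0128 in edgeR. Without mock replicate 4 the adjusted p was 0.0514, without *M1BP* knockdown replicate 2 it was 0.0617 at a log2 fold change of 0.41, and with mock replicates 1 and 2 alone it was 0.0702. The rise thus kept its direction but not its call.

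*Eno*, enolase, which forms phosphoenolpyruvate, measured 358, 346, 332 and 333 CPM in mock replicates 1 to 4 and 259 and 199 CPM in *M1BP* knockdown replicates 2 and 3. Both knockdown libraries were below all mock libraries. The means were 342 ± 12.2 CPM (SD, n = 4) and 229 ± 42.2 CPM (SD, n = 2), a log2 fold change of -0.54 ± 0.14 (SE; 95% interval -0.85 to -0.22) with adjusted p = 0.0219 in edgeR. The call was lost without mock replicate 1, 2 or 4 (adjusted p = 0.0516, 0.0548 and 0.0599) and without *M1BP* knockdown replicate 3 (adjusted p = 0.0638, log2 fold change -0.39). It was also lost against either pair of mock libraries alone, with adjusted p = 0.0668 for replicates 1 and 2 and 0.0918 for replicates 3 and 4.

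*Pfk*, phosphofructokinase, measured 186, 184, 196 and 191 CPM in mock replicates 1 to 4 and 161 and 128 CPM in the *M1BP* knockdown libraries. The groups did not overlap, and the log2 fold change of -0.35 ± 0.13 (SE) had an adjusted p of 0.0818 in edgeR. It passed the threshold without *M1BP* knockdown replicate 2, with a log2 fold change of -0.55 and an adjusted p of 0.0197. *Pgi*, phosphoglucose isomerase, the step before *Pfk*, measured 157, 161, 124 and 122 CPM in the mock libraries and 179 and 145 CPM after *M1BP* knockdown. These groups overlapped, with a log2 fold change of 0.25 ± 0.16 (SE) and an adjusted p of 0.292.

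None of the remaining 6 genes passed the test after *M1BP* knockdown. Replicate 3 was below replicate 2 in all 10 genes, among them *Tpi* (161 and 109 CPM), *Gapdh1* (109 and 77.4 CPM) and *Pgk* (64.5 and 39.0 CPM). The share of all genes with that order was not counted, so it is not read as a trait of these 10. The log2 fold changes were -0.32 ± 0.18 (SE) for *Tpi*, -0.26 ± 0.23 for *Hex-A*, -0.15 ± 0.13 for *Gapdh2* and -0.13 ± 0.22 for *Gapdh1*. *Pgk* and *Pyk*, the ATP-yielding steps, had log2 fold changes of -0.078 ± 0.21 and -0.052 ± 0.16 (SE). Adjusted p ranged from 0.228 to 0.830 over these 6 genes. The 95% interval of *Pyk* ran from -0.41 to 0.30 and that of *Hex-A* from -0.79 to 0.26 on the log2 scale. *Tpi* alone of the 6 passed the threshold under any alternative, without *M1BP* knockdown replicate 2 (log2 fold change -0.65, adjusted p = 0.0346).

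**Figure D2:**
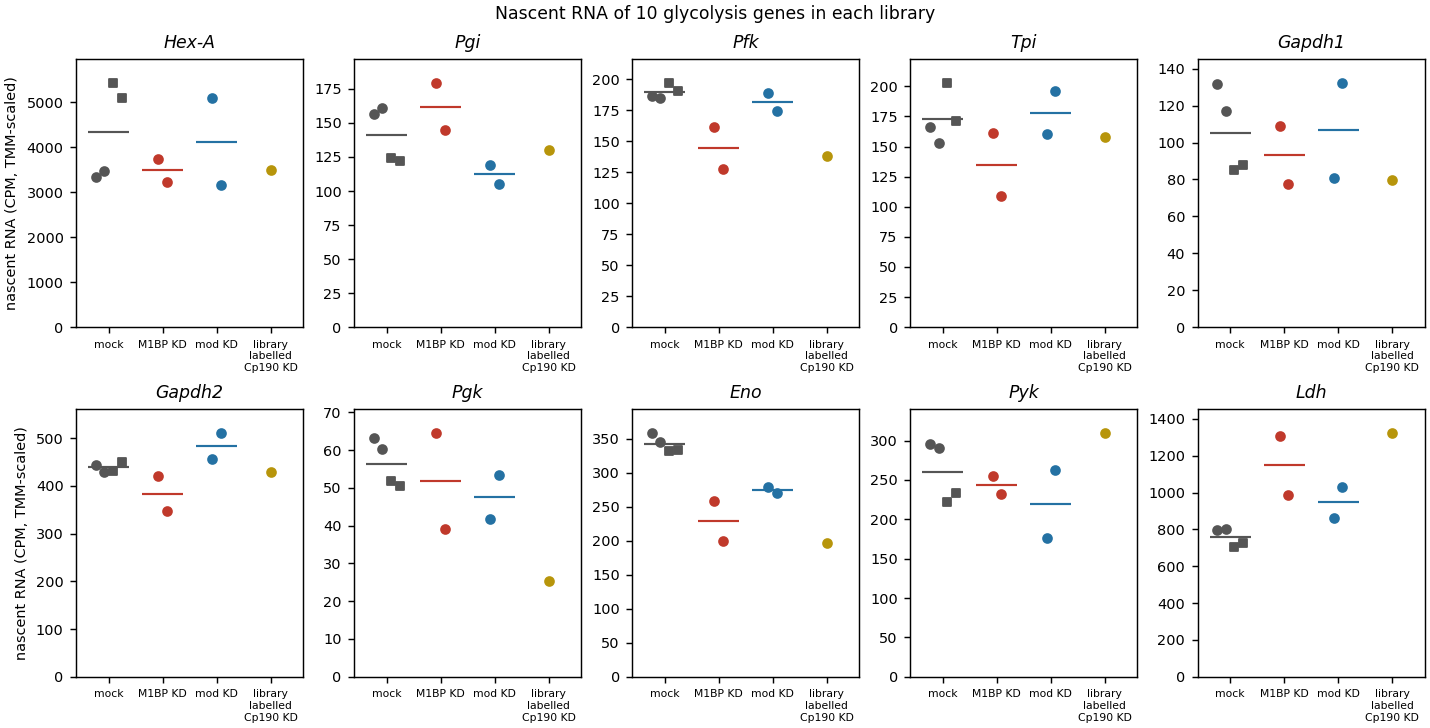
CPM of each gene in each of the 9 libraries, with each y axis starting at 0 and lines at the means of groups with more than 1 library; squares are mock replicates 3 and 4, circles all other libraries. *Ldh* lies between 704 and 800.3 CPM in mock and at 989 and 1307 CPM after *M1BP* knockdown, *Eno* between 332 and 358 CPM in mock and at 199 and 259 CPM after it.

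After *mod(mdg4)* knockdown none of the 10 genes passed the test. By edgeR over 9066 genes, 0.32% were higher and 0.408% lower at an adjusted p below 0.05, so a count of 0 among 10 is near the background. At an unadjusted p below 0.05 there were 2 of the 10, where 20.6% of all genes were, and DESeq2 also called 0 of them. For 2 genes (*Gapdh2* and *Ldh*) both libraries exceeded the whole mock range and for 2 (*Pgi* and *Eno*) both fell short of it, where 13% and 17.9% of all genes did so. The median log2 fold change of the 10 was -0.040, beside 0.0043 over all genes tested.

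*Ldh* measured 864 and 1028 CPM in *mod(mdg4)* knockdown replicates 1 and 2, both above the mock range that ended at 800.3 CPM. The log2 fold change was 0.35 ± 0.13 (SE), with an edgeR adjusted p of 0.189 and a 95% interval from 0.046 to 0.66. Such intervals are approximate and, unlike the adjusted p, are not adjusted for the number of genes tested. *Eno* measured 279 and 269.8 CPM, both below the lowest mock library. Its log2 fold change was -0.29 ± 0.11 (SE), with an adjusted p of 0.188 and a 95% interval from -0.54 to -0.038. *Pgi* measured 119 and 105 CPM, just below the 122 CPM of mock replicate 4, with a log2 fold change of -0.30 ± 0.16 (SE) and an adjusted p of 0.325.

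*Gapdh2* measured 456 and 511 CPM after *mod(mdg4)* knockdown against 445, 430.3, 431 and 450.0 CPM in mock replicates 1 to 4. It was the steadiest of the 10 genes in the mock libraries, with a coefficient of variation of 2.26%, and its log2 fold change of 0.17 ± 0.12 (SE) had an adjusted p of 0.455. For *Hex-A*, *Gapdh1* and *Pyk* the *mod(mdg4)* knockdown libraries stood apart from each other. *Hex-A* measured 5094 CPM in replicate 1, close to the 5099 CPM of mock replicate 4, and 3161 CPM in replicate 2, below the 3333 and 3473 CPM of mock replicates 1 and 2. *Gapdh1* measured 81.1 and 132 CPM in knockdown replicates 1 and 2, where mock replicates 3 and 4 had 85.0 and 87.8 CPM and mock replicates 1 and 2 had 132 and 117 CPM. *Pyk* measured 176 and 263 CPM against 296, 290.1, 223 and 233 CPM in the mock libraries. These 3 genes were singled out after their values were seen.

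**Figure D3:**
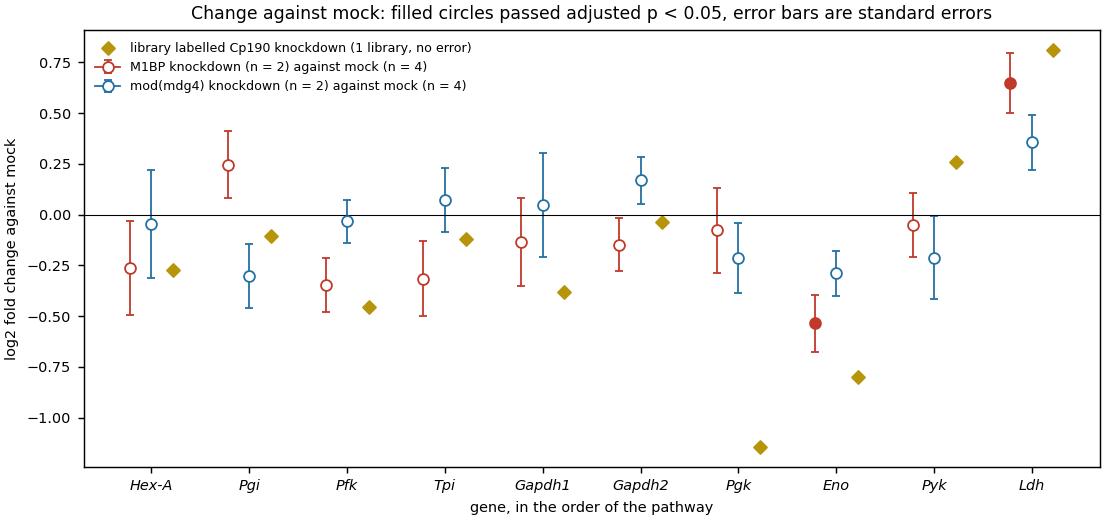
Log2 fold change against mock of each gene in pathway order, for *M1BP* knockdown (red) and *mod(mdg4)* knockdown (blue) with standard errors, and the log2 ratio of the library labelled as *Cp190* knockdown (diamonds, 1 library, no error). Filled circles passed an adjusted p of 0.05 in edgeR: *Ldh* at 0.65 and *Eno* at -0.54 after *M1BP* knockdown.

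Since both knockdowns share the mock libraries, they were also compared with each other directly. In edgeR over 8757 genes, 0 of the 10 passed the test, where 4.84% of all genes were higher and 1.68% lower after *M1BP* knockdown. At an unadjusted p below 0.05 there was 1 of the 10, where 21.1% of all genes were. Those shares came from 424 higher and 147 lower genes, a split that became 253 and 261 when libraries were scaled by their totals alone. DESeq2 also called 0 of the 10. *Ldh* was higher after *M1BP* than after *mod(mdg4)* knockdown by a log2 difference of 0.32 (95% interval -0.30 to 0.94), and *Eno* differed by -0.22 (95% interval -0.77 to 0.33), so neither knockdown was shown to move them more than the other. *Pgi* had the largest difference of the 10, 0.58 (unadjusted 95% interval 0.036 to 1.12) with an adjusted p of 0.202.

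In the library labelled as *Cp190* knockdown, 2 of the 10 genes lay above all 4 mock libraries and 5 below, where 38.8% and 45.6% of 10180 genes did so. *Ldh* measured 1323 CPM, a log2 ratio of 0.81 to the mock mean, and *Pyk*, pyruvate kinase, 309.6 CPM with a log2 ratio of 0.26. *Pgk*, phosphoglycerate kinase, measured 25.4 CPM (242 counts, 95% binomial interval 22.3 to 28.8 CPM, counting error only) against 63.1, 60.2, 51.8 and 50.6 CPM in mock replicates 1 to 4, a log2 ratio of -1.14. *Eno* measured 196 CPM (log2 ratio -0.80), *Pfk* 138 CPM (-0.46) and *Gapdh1* 79.6 CPM (-0.38). *Gapdh2*, at 429 CPM, was below the mock range by little (-0.035), and under the other scalings it was above the mock mean, by 0.00087 with library totals alone to 0.14 with upper-quartile scaling. Under DESeq2 size factors, upper-quartile scaling or library totals alone, 3 of the 10 lay below all mock libraries. These values of 1 library were not tested.

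Ratios of counts within a library do not depend on how libraries are scaled. That of *Ldh* to *Eno* sets the gene called higher after *M1BP* knockdown over the one called lower. Its rise after *M1BP* knockdown thus follows from the choice. This pair was singled out after its values were seen, so its ratio is a description with no test. The ratio of *Ldh* to *Eno* counts was 2.22, 2.32, 2.12 and 2.18 in mock replicates 1 to 4. It was 5.05 and 4.97 in the *M1BP* knockdown libraries, 3.10 and 3.81 in the *mod(mdg4)* knockdown libraries and 6.74 in the library labelled as *Cp190* knockdown. Every library that received double-stranded RNA lay above every mock library, and those of *M1BP* knockdown lay above those of *mod(mdg4)* knockdown. No library received double-stranded RNA against an unrelated target. In comparisons with mock, receipt of such RNA was therefore not tested apart from loss of the target.

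The ratio of *Pgi* to *Pfk*, successive steps of the upper pathway, was also read after the values were seen. It was 0.84, 0.87, 0.63 and 0.64 in mock replicates 1 to 4 and 1.11 and 1.14 after *M1BP* knockdown, the libraries in which *Pgi* had more counts than *Pfk*. After *mod(mdg4)* knockdown it was 0.63 and 0.60, both below the mock range, the first by less than the rounding, and in the library labelled as *Cp190* knockdown 0.94. The ratio of *Gapdh2* to *Gapdh1*, genes for the same enzyme, separated the mock pairs instead, with 3.38 and 3.68 in replicates 1 and 2 and 5.07 and 5.12 in replicates 3 and 4. In the *M1BP* knockdown libraries it was 3.87 and 4.49, between the mock pairs, and in those of *mod(mdg4)* knockdown 5.62 and 3.87. *Hex-A* held 53.6% to 69.8% of the counts of the 10 genes together, which in turn were 0.531% to 0.769% of all counts in a library.

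**Figure D4:**
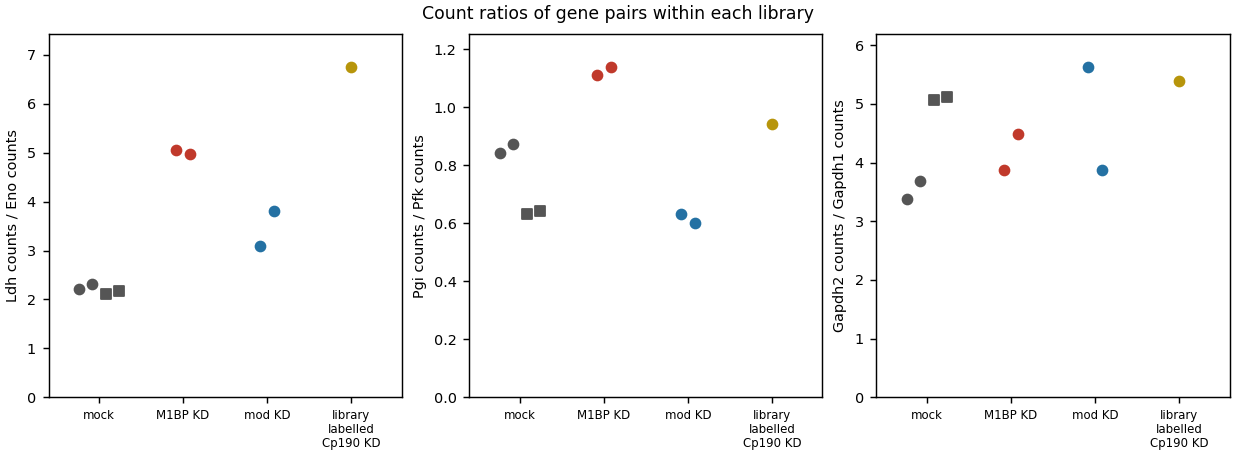
Ratios of counts within each library, for *Ldh* over *Eno*, *Pgi* over *Pfk* and *Gapdh2* over *Gapdh1*, with y axes from 0; squares are mock replicates 3 and 4. *Ldh* over *Eno* is 2.12 to 2.32 in mock and 3.10 to 6.74 in the other 5 libraries.

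Around the pathway, fixed lists of sugar supply, branch and regulator genes were read in the same tests. Genes were named where they passed the test and averaged at least 10 CPM in mock, and genes named outside that rule are marked. Of the 14 sugar supply genes, which take up glucose or free it from trehalose and glycogen, 11 were tested after *M1BP* knockdown. Of these, 1 rose and 3 fell, where 16.5% of all tested genes were higher and 11.5% lower. The 3 were *Treh*, trehalase (log2 fold change -0.61 ± 0.12, SE, adjusted p = 0.00767), *CG9485*, the glycogen debranching enzyme (-0.84 ± 0.22, adjusted p = 0.0211), and *Glyp*, glycogen phosphorylase (-0.58 ± 0.18, adjusted p = 0.0428). The call of *Glyp* was lost with either mock pair alone (adjusted p = 0.144 and 0.129), without any 1 mock library (0.0708 to 0.0808) and without *M1BP* knockdown replicate 3 (0.13), and that of *CG9485* with mock replicates 3 and 4 only (0.11) and without *M1BP* knockdown replicate 3 (0.0899). With replicate number as a block, the call of *Treh* was lost (adjusted p = 0.305 in edgeR). The gene that rose was *Glut1*, a glucose transporter, which is named here after its value was seen because its mock level was below 10 CPM.

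*Glut1* measured 5.76, 5.48, 5.93 and 6.17 CPM in mock replicates 1 to 4 and 76.2 and 119 CPM in *M1BP* knockdown replicates 2 and 3. The knockdown libraries were far above mock, with a log2 fold change of 4.11 ± 0.20 (SE) and an edgeR adjusted p of 1.8e-05. *Glut1* was at 2.06 and 5.93 CPM after *mod(mdg4)* knockdown and at 105 CPM in the library labelled as *Cp190* knockdown. The gene spans shorter non-coding genes on its own strand that cover 0.882% and 0.431% of it.

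Of the 16 other glycolysis enzymes, most of them paralogs, 7 were tested after *M1BP* knockdown. Over all tested genes 16.5% were called higher, and of these 7 it was 1. This was *CG11249*, also below 10 CPM in mock and named after its value was seen. It measured 2.11, 2.67, 1.55 and 1.6 CPM in mock replicates 1 to 4 and 17.2 and 36.9 CPM after *M1BP* knockdown. Its log2 fold change was 3.81 ± 0.34 (SE), with an adjusted p of 0.000181. It was at 68.3 CPM in the library labelled as *Cp190* knockdown. *Pglym87* had 0 counts in all 9 libraries, which allows up to 0.104 to 0.349 CPM, depending on the library. *Pfrx* and, among the branch genes, *Pepck1* also had 0 counts, but the span of each lies wholly within another gene on the same strand, and no level is read from them.

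At the branches from triose phosphate and pyruvate, 11 of 13 genes were tested after *M1BP* knockdown, 2 rose and 2 fell. Over all tested genes, 16.5% were called higher and 11.5% lower. *PCB*, pyruvate carboxylase, rose (log2 fold change 1.54 ± 0.24, SE, adjusted p = 0.00247), as did *Pdk*, the kinase that switches off pyruvate dehydrogenase (1.06 ± 0.17, adjusted p = 0.00309). *Pdp*, the phosphatase that switches pyruvate dehydrogenase on again, fell (-0.94 ± 0.18, adjusted p = 0.00633), as did *Gpo1*, a mitochondrial glycerol-3-phosphate dehydrogenase (-1.02 ± 0.13, adjusted p = 0.00119). *Pdk* measured 97.6, 90.1, 114 and 109 CPM in mock replicates 1 to 4 and 247 and 167 CPM after *M1BP* knockdown, while *Pdp* measured 39.7, 40.6, 38.5 and 36.3 CPM and then 16.8 and 22.5 CPM. Neither gene overlapped between the groups. With replicate number as a block, the calls of *Pdp* and *Gpo1* were lost (adjusted p = 0.117 and 0.0515 in edgeR). None of the 7 genes of the pentose phosphate pathway was called (1 at an unadjusted p below 0.05 in edgeR, where 40.7% of all genes were), and of 17 citric acid cycle genes 1 rose, *ScsbetaA*, a subunit of succinyl-CoA synthetase (0.63 ± 0.15, adjusted p = 0.0141). Its call was lost with either mock pair alone (adjusted p = 0.0557 and 0.0839) and without *M1BP* knockdown replicate 3 (0.0752). The medians of these lists lay between -0.24 and 0.23 on the log2 scale, beside -0.030 over all genes tested.

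Of 10 transcription factors and regulators linked to glycolytic genes, 9 were tested, and after *M1BP* knockdown 1 rose and 2 fell. Over all tested genes, 16.5% were called higher and 11.5% lower. *foxo*, a factor that insulin signalling restrains, fell (log2 fold change -0.80 ± 0.13, SE, adjusted p = 0.0027), and *bigmax*, a partner of the sugar sensor Mondo, fell (-0.58 ± 0.18, adjusted p = 0.0424). The call of *bigmax* was lost with either mock pair alone (adjusted p = 0.134 and 0.117), without any 1 mock library (0.0752 to 0.0991) and without *M1BP* knockdown replicate 3 (0.116). *crc*, the fly ATF4, rose (0.71 ± 0.15, adjusted p = 0.00923), but 59.7% of its span is shared with another gene on the same strand. Its adjusted p was 0.0533 with mock replicates 3 and 4 only. With replicate number as a block, the calls of *foxo* and *crc* were lost (adjusted p = 0.177 and 0.262 in edgeR). *Myc* had 0 counts in every library and lies wholly within a longer non-coding gene on the same strand, so no level is read from it.

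After *mod(mdg4)* knockdown 1 gene of these 6 lists passed the test, where 0.32% of all tested genes were higher and 0.408% lower. This gene was *sug*, a sugar-responsive zinc-finger factor. It measured 142, 143, 140.2 and 134 CPM in mock replicates 1 to 4 and 70.8 and 74.3 CPM in the knockdown libraries. The groups did not overlap, and the log2 fold change was -0.92 ± 0.11 (SE) with an adjusted p of 0.0232 in edgeR. The call was lost with mock replicates 1 and 2 only (adjusted p = 0.2), with replicates 3 and 4 only (0.244) and without any 1 of mock replicates 1 to 4 (0.113, 0.117, 0.08 and 0.121). After *M1BP* knockdown *sug* measured 124 and 140.4 CPM (log2 fold change -0.038 ± 0.12, SE, adjusted p = 0.843). The direct comparison of the knockdowns gave 0.91 ± 0.26 (SE) with an adjusted p of 0.0502, just short of the threshold. In the same direct comparison *Glut1*, *CG11249* and *PCB* were higher after *M1BP* knockdown, with log2 differences of 4.69, 4.58 and 1.98 and adjusted p of 6.5e-05, 0.000272 and 0.00542.

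**Figure D5:**
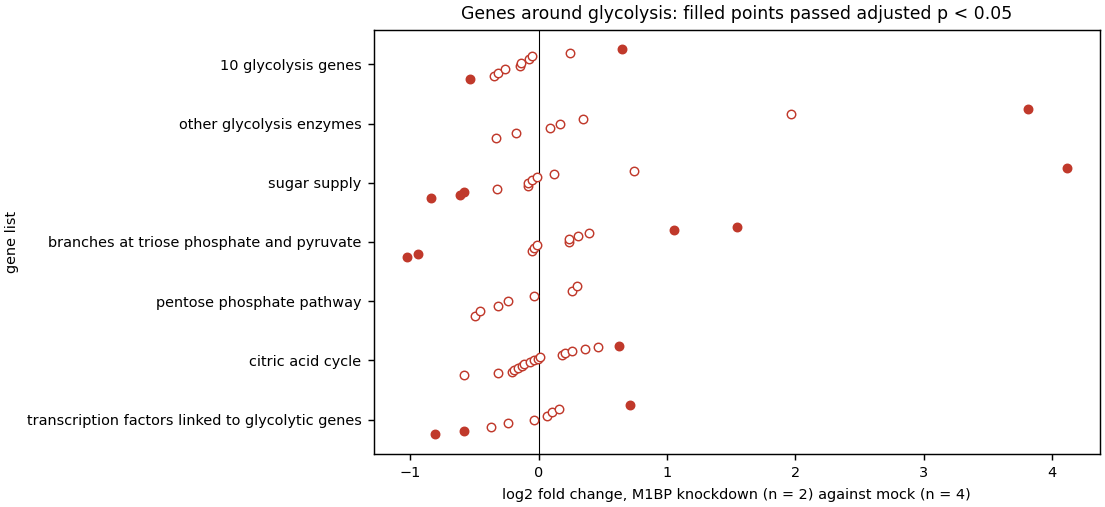
Log2 fold change after *M1BP* knockdown of every tested gene in the 10 glycolysis genes and the 6 lists around them, each list on its own row and ordered by value within it; filled points passed an adjusted p of 0.05 in edgeR. *Glut1* at 4.11 and *CG11249* at 3.81 lie farthest to the right, and *Ldh* at 0.65 and *Eno* at -0.54 are the filled points of the glycolysis row.

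Markers of cell types moved with *M1BP* knockdown too. Of the 8 plasmatocyte markers, 3 rose (*Pxn*, *Ppn* and *Hml*, with log2 fold changes of 1.61, 1.26 and 0.75) and 2 fell (*vkg* and *Col4a1*, -1.14 and -0.51). Over all tested genes, 16.5% were called higher and 11.5% lower. *srp* lay below every mock library but was not called (-0.70 ± 0.23, SE, adjusted p = 0.0527 in edgeR). With a mock mean of 4363 CPM, *srp* holds most of the sum of these 8 markers. Their summed level was 4309 to 6424 CPM in the mock libraries, 4349 and 3799 CPM after *M1BP* knockdown, 4875 and 3136 CPM after *mod(mdg4)* knockdown and 3323 CPM in the library labelled as *Cp190* knockdown. The 13 markers of other cell types summed to 603 to 711 CPM in mock, 673 and 699.8 CPM after *M1BP* knockdown, 770.1 and 674 CPM after *mod(mdg4)* knockdown and 846 CPM in the library labelled as *Cp190* knockdown, with the fat body markers *Fbp1* and *Lsp2* at 0 counts in mock. Outside mock, *Fbp1* was at 2.94 CPM in the library labelled as *Cp190* knockdown and *Lsp2* at 1.95 CPM in 1 *M1BP* knockdown library. *brp*, *Myo31DF* and *elav* make up most of the sum of these 13, with mock means of 365, 183 and 106 CPM. After *M1BP* knockdown 2 of these 13 were called higher (*Mhc* and *nub*) and 1 lower (*nanos*), of 11 tested. Their mock means were low, at 2.97, 1.03 and 0.481 CPM. After *mod(mdg4)* knockdown 1 of 9 tested was called, *Myo31DF*, which rose (log2 fold change 0.75 ± 0.11, SE, adjusted p = 0.0395 in edgeR). Over all genes tested there, 0.32% were called higher. None of the 8 plasmatocyte markers was called after *mod(mdg4)* knockdown. The part of these markers in the glycolysis results was not tested. In bulk RNA, fewer cells that express a gene and less RNA per cell cannot be told apart.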

How the data were processed

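Strand-specific nascent RNA libraries were mapped by the authors to dm6 with HISAT2 v2.1.0 after trimming with cutadapt v2.7, and reads were counted over whole genes with featureCounts v1.6.4. The deposited values are raw counts per gene. The table was used as deposited, through its 9 uniquely headed columns of 11 labelled libraries, and 2 columns that share a header were not used. Counts were tested with edgeR v4.0.16 in R v4.3.3 (TMM scaling, filterByExpr, quasi-likelihood test, two-sided, Benjamini-Hochberg over all tested genes, threshold 0.05), with only the groups compared in each fit, and DESeq2 v1.42.0 as an alternative. SE is the log2 fold change over the root of F. CPM use TMM factors over the 9 libraries, and correlations use log2 CPM with a prior count of 2. Group means are followed by SD. Genes around the pathway were named if they passed the test and averaged at least 10 CPM in mock. The 10 genes, the lists and the rules were chosen with earlier results of these data known. Gene models were taken from an Ensembl annotation whose coordinates equal those of the table for all 10 genes. Promoter and protein sequences were not analysed here. Scripts were tested on simulated data. Other scalings, filters, tests, thresholds, control pairs, left-out libraries and a replicate block were tried as alternatives. Intervals of single libraries cover counting error only.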

Additional observations from a re-analysis of the deposited data

How the results depend on the processing

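No direction of *Ldh* or *Eno* reversed in any of the 19 alternatives of the *M1BP* comparison, but *Ldh* passed the threshold in 13 of them (log2 fold change 0.41 to 0.80, adjusted p up to 0.346) and *Eno* in 9 (-0.76 to -0.39, adjusted p up to 0.411). The alternatives with an adjusted p below 0.01 or an absolute log2 fold change of at least 1 reused the main fit. Their direction and the loss of both calls were thus fixed in advance. Depth limits *Pgk* most, with 242 counts in the library labelled *Cp190* knockdown. Leaving out a knockdown library leaves a group of 1, which is then assumed to vary like the other group. Leaving out a mock library does not. The cause of these changes was not tested. For genes named from the lists, the alternatives were chosen after seeing the data.

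With the replicate block after *M1BP* knockdown, 0 of the 10 genes were called higher and 0 lower, and 466 and 100 of all genes. Same-numbered libraries correlated in their deviations at -0.134 there and -0.0525 for *mod(mdg4)* knockdown, so the numbers were not taken as pairs. A crossed block, chosen after seeing the data, called 0 of the 10 lower and 835 and 560 genes. With the block, *mod(mdg4)* knockdown gave 61 and 80 genes, and log2 fold changes of 0.27 for *Hex-A*, 0.00099 for *Pfk* and -0.23 for *Gapdh1*, which reversed. The knockdowns share 1 replicate number, so no block could be fitted between them. Of the genes named from the lists around the pathway after *M1BP* knockdown, only *PCB*, *Pdk*, *Glut1* and *CG11249* kept their calls with the replicate block.

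After *M1BP* knockdown, none of the 10 was called with mock replicates 1 and 2 only (0 higher, 0 lower; 750 and 505 of all genes), and 0 lower with replicates 3 and 4 only (796 and 553). At an adjusted p below 0.01, 0 and 0 of the 10 and 780 and 322 of all genes were called, and at an absolute log2 fold change of at least 1, 0 and 0 and, of all genes, 373 lower. Library size only gave 2 of the 10 lower, and one model of all 9 libraries 954 genes higher. Leaving out 1 library gave 0 to 1 of the 10 higher, 0 to 3 lower, and 1085 to 1790 and 582 to 1437 genes.

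For *mod(mdg4)* knockdown, 29 higher and 37 lower genes became 51 and 28 with library size only, 323 and 483 with DESeq2, 18 higher in one model, 0 and 0 with either mock pair, 0 and 2 at an adjusted p below 0.01, and 12 and 21 at an absolute log2 fold change of at least 1. Leaving out 1 library gave 0 to 653 and 0 to 634 genes, the highest without *mod(mdg4)* knockdown replicate 1. None of the 10 was called in any of these. Between the knockdowns, genes called were 253 and 261 with library size only, 658 higher with DESeq2, 313 lower with no filter, 254 lower with at least 10 counts in every library, 929 and 718 in one model, 218 and 30 at an adjusted p below 0.01, and 251 to 521 and 82 to 193 with 1 library left out.

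Library size only moved the median log2 fold change of all genes to -0.13 after *M1BP* knockdown, 0.12 after *mod(mdg4)* knockdown and -0.27 between them. The log2 fold changes that reversed belonged to genes with no call. After *M1BP* knockdown these were *Pgk* (0.0077) and *Pyk* (0.030) with upper-quartile scaling, *Pyk* (0.012) with at least 10 counts in every library, *Hex-A* (0.095) with mock replicates 1 and 2 only, *Gapdh1* (0.14), *Pgk* (0.056) and *Pyk* (0.13) with mock replicates 3 and 4 only, and, with 1 library left out, *Gapdh1* (-0.42 to 0.058), *Pgk* (-0.51 to 0.21) and *Pyk* (-0.15 to 0.0050). After *mod(mdg4)* knockdown they were *Hex-A* (0.076) and *Pfk* (0.088) with library size only, *Hex-A* (0.31), *Pfk* (0.0015) and *Gapdh1* (-0.19) with mock replicates 1 and 2 only, *Tpi* (-0.028) with mock replicates 3 and 4 only, and, with 1 library left out, *Gapdh1* (-0.37 to 0.35), *Hex-A* (-0.43 to 0.24), *Pyk* (-0.56 to 0.040) and *Tpi* (-0.11 to 0.21). Between the knockdowns they were *Pgk* (-0.094) and *Pyk* (-0.070) with library size only, and, with 1 library left out, *Gapdh1* (-0.44 to 0.25), *Hex-A* (-0.49 to 0.21), *Pgk* (-0.24 to 0.46) and *Pyk* (-0.048 to 0.52). In the library labelled *Cp190* knockdown, 3 of the 10 were below all mock libraries with DESeq2 size factors, upper-quartile scaling or library size only, and *Gapdh2* had log2 ratios of 0.12, 0.14 and 0.00087.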

Other observations

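Across the 9 libraries, the pair of glycolysis genes whose log2 CPM were most alike was *Pfk* and *Eno*, with a Pearson correlation of 0.93, followed by *Tpi* and *Gapdh2* with 0.84. *Eno* and *Ldh* were the most opposed pair, with -0.79, and *Pfk* and *Ldh* had -0.72. The points share their libraries and include all 4 groups, so these values are a description. Among 5766 other genes, the mean profile of the 10 was most closely matched over the 9 libraries by *Elp4* (0.95), *parvin* (0.94), *CG13369* (0.93), *Idi* (0.93) and *WDR79* (0.91). These are the highest of 5766 correlations over only 9 libraries, where high values can arise by selection, and they were not tested.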
